A study of Homo sapiens with 8 samples.

Results

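The genes described here encode the ubiquitin-specific proteases (USPs), the largest family of human deubiquitinases. Members were the autosomal protein-coding genes in the GENCODE annotation of GRCh37/hg19 whose symbol is USP followed by digits only, which left out 26 copies of the USP17 family and USP6NL. This gave 45 genes on 18 chromosomes, of 19229 autosomal protein-coding genes. Each gene was scored by the G-quadruplex (G4) ChIP-seq intervals that overlapped the 1 kb on either side of any of its annotated transcription start sites (TSSs) by at least 1 bp.

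Ubiquitin is a small protein that is attached to other proteins and, as chains, directs them to the proteasome or alters their location and partners. USPs are cysteine proteases that remove it again, and single members act on histones, receptors on endosomes, DNA repair factors, the spliceosome or free ubiquitin chains. A G4 is a four-stranded DNA structure in which guanines of several G runs stack on each other, and promoters rich in G runs are known sites of G4 formation in chromatin.

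G4 structures were mapped by ChIP-seq with BG4, an antibody that recognises the folded structure, in crosslinked, RNase-treated chromatin of K562, a human chronic myelogenous leukemia line, and HepG2, a human hepatocellular carcinoma line. The labels list 3 G4 ChIP libraries and 1 input library without antibody for each line, and both lines are established cancer lines, so each stands for 1 genotype only. The authors deposited 4 lists of interval positions. The high-confidence lists hold stretches found in at least 5 of 8 replicates (K562, 9205 intervals) or 6 of 9 replicates (HepG2, 8805 intervals), and the lower-confidence lists stretches found in at least 2 of 8 (19249 intervals) or 2 of 9 (28387 intervals). The replicates of each line came from 3 independent experiments with several technical replicates each, so the replicates behind an interval were not all independent. The paper states that earlier G4 ChIP-seq data of K562 were considered too, without saying whether they entered these lists. The lists give no read count, peak height or value per replicate, so depth is unknown, no error between replicates can be given, and no test over samples was made. A gene without an interval is one where a peak was not called in enough replicates. Because the required number of replicates differed between the lines, effects of the line and of list making cannot be told apart, and copy number was not measured.

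The sequences below are the complete G4 motifs that lay in high-confidence intervals of both lines at USP genes. They are shown because they are the candidate G4-forming stretches at which the maps of both lines coincided. A complete motif was defined as at least 4 runs of at least 3 G separated by loops of 1 to 7 bases of any kind, searched on both strands of hg19. Each is printed 5′ to 3′ on the G-rich strand, with every run of 3 or more G in capitals.
USP3 (chr15:63796623-63796663, plus strand): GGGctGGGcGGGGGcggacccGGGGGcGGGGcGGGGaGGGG
USP22 (chr17:20946437-20946453, minus strand): GGGaGGGGGGGGGGGGG
USP22 (chr17:20946613-20946628, minus strand): GGGGGGGGGGGGGGGG
USP28 (chr11:113746296-113746337, minus strand): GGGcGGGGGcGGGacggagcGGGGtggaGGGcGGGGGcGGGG
USP32 (chr17:58469842-58469861, minus strand): GGGcgcGGGGGcGGGGGGGG
USP37 (chr2:219433139-219433164, minus strand): GGGGcGGGGcgaGGGcgtgtgaGGGG
USP49 (chr6:41863140-41863170, minus strand): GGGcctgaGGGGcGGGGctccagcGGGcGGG
USP53 (chr4:120133730-120133753, plus strand): GGGGagaGGGGcGGGGctccaGGG

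These 8 sites belonged to 7 genes and were 16 to 42 bases long. The USP22 and USP32 sites met the definition because G itself was allowed in a loop, and the second USP22 site is a single unbroken run of 16 G. The USP28 site was complete in the K562 interval, whereas the HepG2 interval ended inside it and held a shorter form of 24 bases. The USP32 site lay in an annotated untranslated region. All 8 ran on the same strand as the gene they flank.

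Intervals were found at most USP promoters, and largely at the same ones in both lines. In K562, 29 of 45 USP genes had a high-confidence interval (64.4%, 95% Wilson interval 49.8 to 76.8), beside 36.7% of all autosomal protein-coding genes. In HepG2 the number was 27 of 45 (60.0%, 45.5 to 73.0), beside 32.0% of all genes. A high-confidence interval was present in both lines at 26 USP genes (57.8%, all genes 25.3%). The Wilson intervals cover the counting of genes only, and genes are not replicates of a condition.

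Only a few members carried a high-confidence interval in a single line. USP25, USP33 and USP38 did so in K562, which is 6.67% of members beside 11.4% of all genes. USP19 alone did so in HepG2, which is 2.22% beside 6.76% of all genes. All 4 had a lower-confidence interval in the other line. No interval of any list was present at 8 USP genes (17.8%, all genes 39.6%), namely USP6, USP13, USP18, USP29, USP30, USP44, USP47 and USP50.

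**Figure D1:**
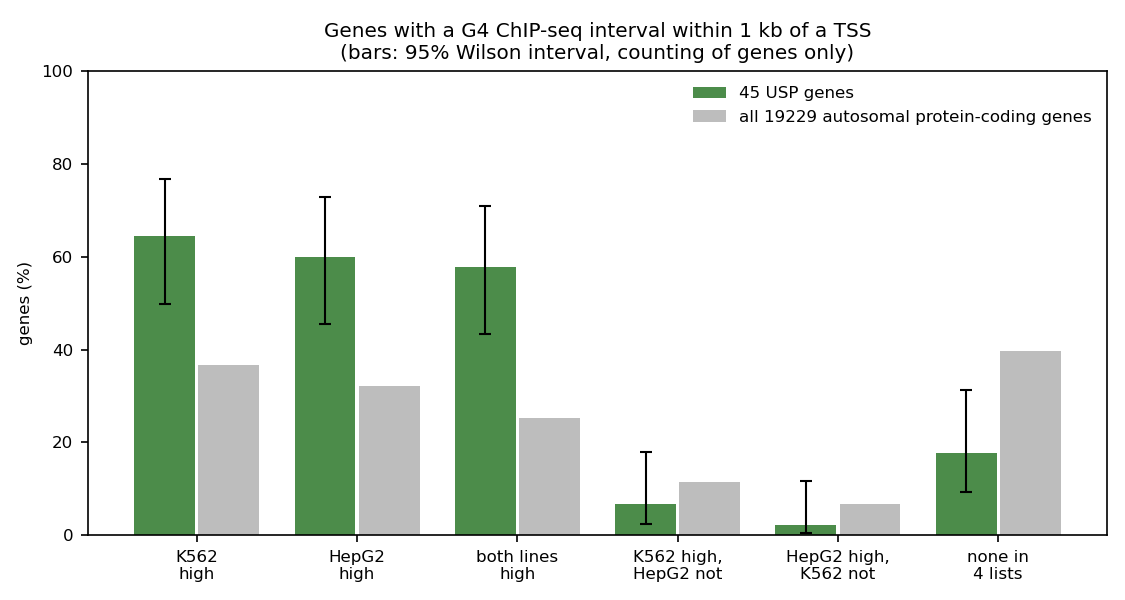
Share of genes (%) with each kind of call, for the 45 USP genes (green, with 95% Wilson intervals) and all 19229 autosomal protein-coding genes (grey). The USP share lies above the genome-wide share for both lines and their overlap (57.8% against 25.3%) and below it for genes without any interval (17.8% against 39.6%).

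The remaining 7 members (15.6%) appeared only in lower-confidence lists, a share near the 16.9% of all genes. USP12, USP16 and USP24 were listed in both lines, USP21 and USP46 in K562 alone, and USP40 and USP43 in HepG2 alone. Counting every interval of the lower-confidence lists, 35 of 45 USP genes were reached in each line, beside 51.3% of all genes in K562 and 52.9% in HepG2.

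Of the 29 USP genes with a high-confidence interval in K562, 26 (89.7%) also had one in HepG2, and the same held for 26 of the 27 HepG2 genes (96.3%). Over all genes these shares were 68.9% and 78.9%. When lower-confidence intervals of the other line were admitted, every USP gene called in one line was reached in the other (29 of 29 and 27 of 27), where 91.4% and 92.1% of all called genes were.

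USP genes have more annotated start sites than most genes, and each start site adds a window in which an interval can be found. The median was 9 distinct TSSs for USP genes (range 3 to 40) and 5 for all genes (1 to 125). Among genes with 5 to 9 TSSs, 10 of 17 USP genes were called in K562 (all genes 42.6%) and 9 of 17 in HepG2 (37.2%). With 10 to 19 TSSs, 12 of 16 were called in K562 (50.9%) and 11 of 16 in HepG2 (45.3%). With 20 or more, 5 of 6 were called in each line (58.5% and 52.4%), and with 1 to 4, 2 of 6 in each line (22.6% and 19.2%). When only the canonical TSS of each gene was used, 28 USP genes remained in K562 (all genes 33.7%) and 26 in HepG2 (29.0%). The genome-wide share rose with the number of start sites, and within each of these strata the USP share was the higher of the pair. Some strata held only 6 USP genes, so single genes weigh heavily there. How far the number of start sites accounts for the USP share was not tested.

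Some promoters are shared with a neighbour, so an interval there cannot be assigned to 1 gene. At 10 USP genes a window held a TSS of another protein-coding gene. In 9 of these the neighbour lay on the opposite strand, namely CDCA3 at USP5, ZNF232 at USP6, TAFA2 at USP15, C9orf78 at USP20, CHCT1 at USP32, KCTD21 at USP35, CNOT9 at USP37, C2orf68 and TMEM150A at USP39, and TSTD3 at USP45. At USP19 it was LAMB2 on the same strand. High-confidence intervals were present at 8 of these 10 genes in K562 and 9 of 10 in HepG2, beside 54.5% and 52.1% of all genes with such a neighbour. Among the 35 USP genes without such a neighbour they were present at 21 in K562 (31.1% of all genes of that kind) and 18 in HepG2 (25.8%).

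**Figure D2:**
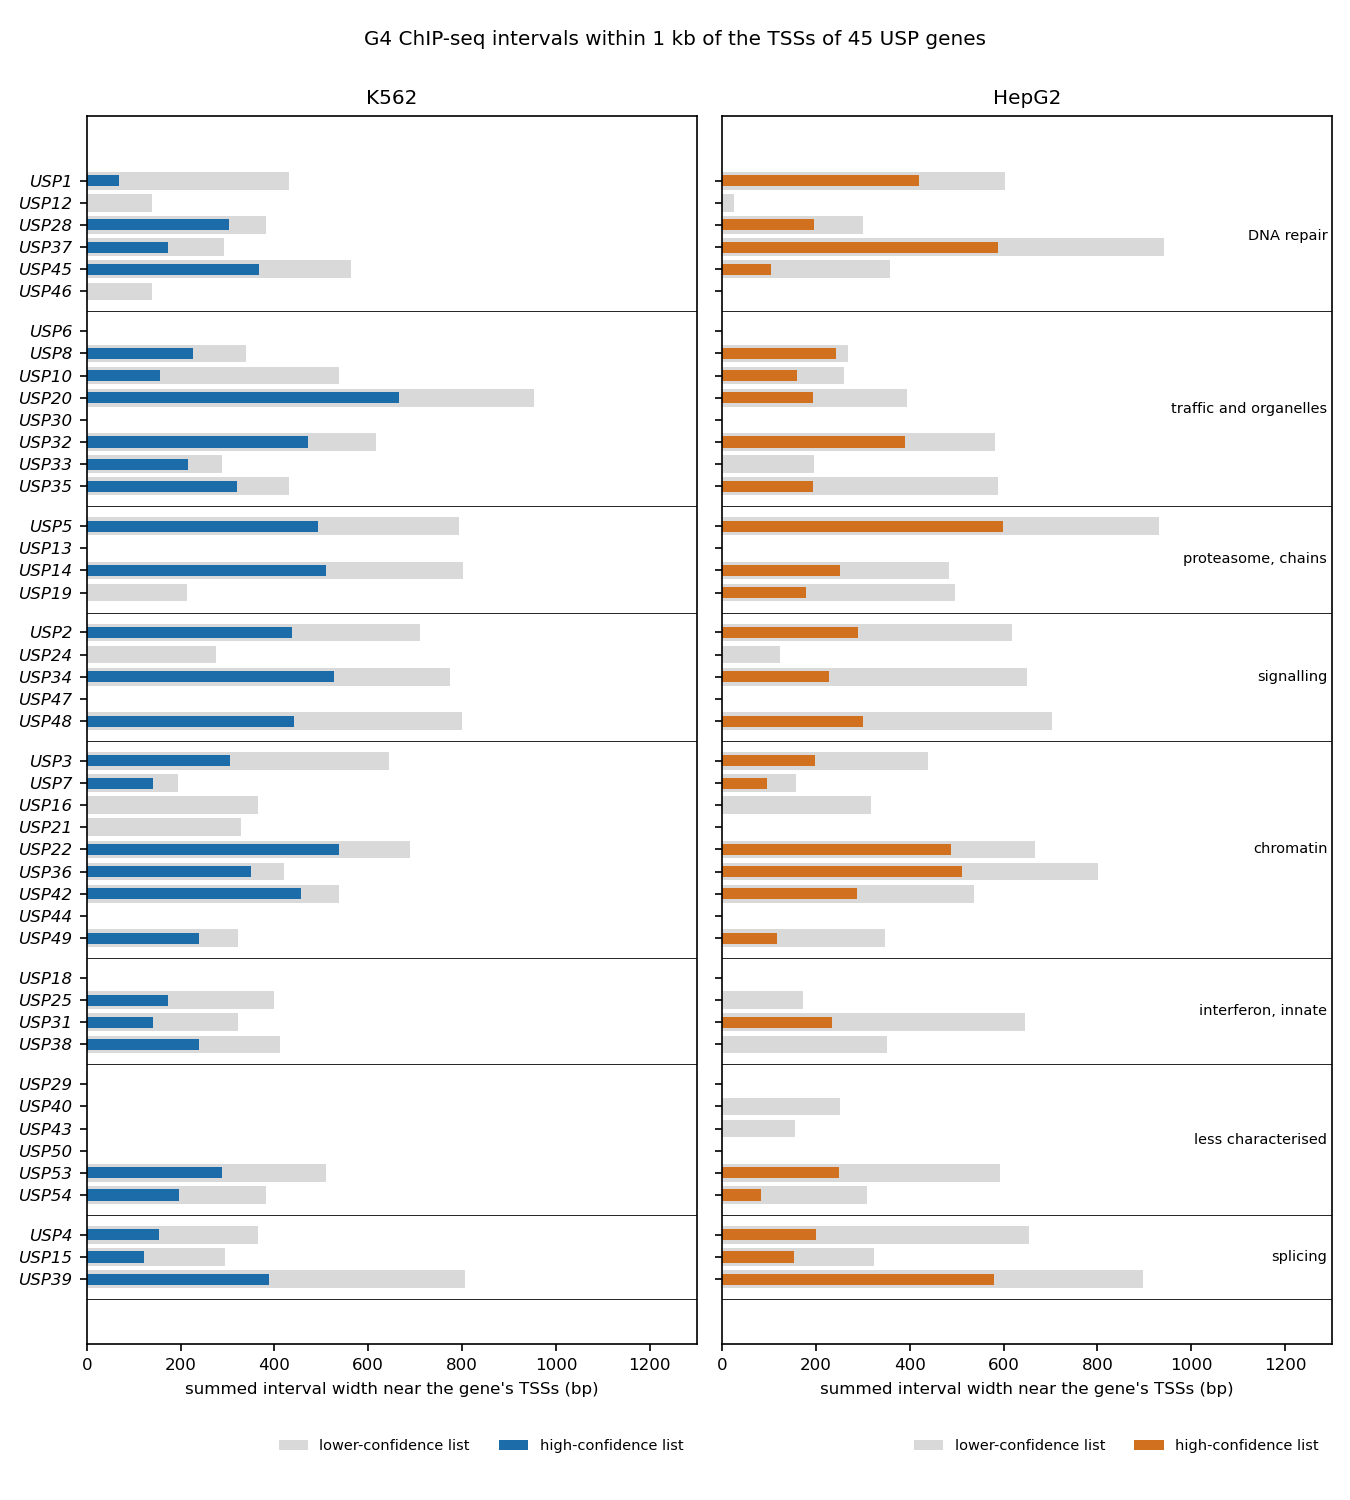
Summed width (bp) of the intervals near the TSSs of each USP gene, in K562 (left) and HepG2 (right), grouped by role, with coloured bars for the high-confidence list and grey bars for the lower-confidence list. Rows without a bar are genes without an interval, and the longest high-confidence bars are USP20 in K562 (666 bp) and USP5 in HepG2 (598 bp).

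The chromatin group comprised 9 genes, most of them deubiquitinases of histone H2A or H2B. Of the 9 genes, 6 had high-confidence intervals in both lines (all genes 25.3%). USP22, the deubiquitinase of the SAGA coactivator complex, had one of the widest intervals of the family, 538 bp in K562 (chr17:20946334-20946871) and 481 bp in HepG2 (chr17:20946392-20946872), with a further 6 bp stretch in HepG2. Both lists thus covered nearly the same stretch, 486 bp of it shared, and it held both G-rich sites printed above. USP42 was covered by a single K562 interval of 456 bp, centred at -152 bp from its TSS (negative being upstream), and by HepG2 intervals of 254 and 33 bp inside the same stretch. No complete motif was found in any of the 3 although their GC content was 75.2% to 87.9%.

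USP3, which acts on ubiquitinated H2A, had a K562 interval of 305 bp and HepG2 intervals of 24 and 174 bp that lay wholly inside it. USP36, a nucleolar protease, had intervals of 350 bp (K562) and 408 bp (HepG2) at the same start site, and in HepG2 a further interval of 103 bp at an internal start site that was in neither K562 list. USP49, an H2B deubiquitinase, had intervals of 239 and 117 bp. USP7, known for its control of MDM2 and p53, had narrower ones of 142 bp in K562 and 96 bp in HepG2.

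USP16 and USP21, both H2A deubiquitinases, did not reach the high-confidence lists. USP16 had 2 lower-confidence intervals per line at matching places, 142 and 223 bp in K562 and 195 and 122 bp in HepG2. USP21 had intervals of 156 and 172 bp in K562 alone. USP44, which acts in the spindle checkpoint and on H2B, had none.

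In the group of DNA repair and replication factors, 4 of 6 genes had high-confidence intervals in both lines (all genes 25.3%). USP1, which removes ubiquitin from FANCD2 and PCNA, differed most between the lines in the ratio of covered lengths, with 69 bp in K562 (chr1:62902151-62902219) and 420 bp in HepG2 (chr1:62902024-62902443). The K562 stretch lay inside the HepG2 one, and the lower-confidence intervals of K562 and HepG2 there were 431 and 601 bp. Its GC content of 47.8% in K562 was the lowest among all high-confidence intervals of the family in that line.

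USP37, a deubiquitinase of cyclin A with a role in replication, showed the same direction, with 174 bp in K562 (chr2:219433082-219433255) inside 589 bp in HepG2 (chr2:219432987-219433575). The HepG2 interval was the widest of the family. USP28, a partner of 53BP1, went the other way, with 304 bp in K562 and 195 bp in HepG2, the latter inside the former. USP45, which acts on the nuclease subunit ERCC1, had 268 bp in K562 and 104 bp in HepG2 at the main start site, and a second K562 interval of 99 bp in the first kb behind its outermost TSS that overlapped only a lower-confidence interval of HepG2.

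USP12 and USP46, close paralogues that share the activator WDR48 with USP1, lacked high-confidence intervals. USP12 was listed at lower confidence with 139 bp in K562 and 25 bp in HepG2, at separate places with centres at -296 and -191 bp from the TSS. USP46 had 138 bp in K562 alone.

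All 3 members grouped under splicing had high-confidence intervals in both lines (all genes 25.3%). USP4 and USP15, paralogues that associate with the spliceosome recycling factor SART3, had 153 and 123 bp in K562 and 201 and 153 bp in HepG2. USP39, a tri-snRNP component that lacks an active protease centre, had intervals at several start sites. Windows of USP39 also held TSSs of C2orf68 and TMEM150A. In K562 the intervals measured 244 bp at the outermost start site of USP39 and 145 bp at its canonical one. In HepG2 they measured 252 bp, 222 bp and, at an internal start site between them, a further 106 bp that overlapped only a lower-confidence interval of K562.

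In the group acting on free chains, the proteasome and protein quality control, 2 of 4 genes had high-confidence intervals in both lines (all genes 25.3%). USP5, which takes apart unanchored ubiquitin chains, had 3 separate intervals in each line, at matching places. Their centres lay at -752, -97 and 352 bp from the nearest TSS in K562, and at -764, -121 and 351 bp in HepG2. The widths were 117, 149 and 227 bp in K562 and 172, 162 and 264 bp in HepG2. Windows of USP5 also held a TSS of CDCA3, so the intervals there cannot all be assigned to USP5 alone. USP13, the paralogue of USP5, had no interval in any list although it has 40 annotated TSSs, the most of any member.

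USP14, which is bound to the proteasome, had intervals of 401 bp in K562 and 251 bp in HepG2, and a second K562 interval of 108 bp that was in neither HepG2 list. USP19, which is anchored in the endoplasmic reticulum membrane, had a HepG2 high-confidence interval of 179 bp (chr3:49158260-49158438). In K562 it had a lower-confidence interval of 213 bp that began at the same base.

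Among 8 genes of endosomes, membrane traffic and organelles, 5 had high-confidence intervals in both lines (all genes 25.3%). USP8, which acts on receptors at endosomes, had 227 and 242 bp with centres 1.5 bp apart. USP10, a partner of the stress granule protein G3BP1, had 157 and 159 bp that shared only 61 bp. USP32, a membrane-associated USP, had 471 bp in K562 and 390 bp in HepG2, the latter wholly within the former.

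USP35 had 321 bp in K562, and in HepG2 81 and 112 bp inside that stretch, separated by a few bases. USP20 and USP33 are paralogues known as substrates of the von Hippel-Lindau ubiquitin ligase. USP20 had a K562 interval of 345 bp and a HepG2 interval of 193 bp inside it, and a second K562 interval of 321 bp (chr9:132641399-132641719) at an internal start site, centred 43822 bp downstream of its canonical TSS, in neither HepG2 list. USP33 had 215 bp at high confidence in K562 and 197 bp at lower confidence in HepG2. USP30, which sits in the outer mitochondrial membrane, and the hominoid gene USP6 had none.

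Of 5 genes in growth, WNT and other signalling, 3 had high-confidence intervals in both lines (all genes 25.3%). USP2, a deubiquitinase of cyclin D1, had 254 and 267 bp at the canonical start site in K562 and HepG2. Each line had a further interval at another internal start site, 184 bp in K562 and 23 bp in HepG2, neither of which was in a list of the other line. USP34, which acts on axin, had 186 and 340 bp in K562 and 228 bp in HepG2 within the second. USP48 had 2 intervals per line at matching places, 234 and 207 bp in K562 and 92 and 209 bp in HepG2. USP24 was listed at lower confidence, with 275 bp in K562 and 124 bp in HepG2 at places that met only at their edges. USP47 had no interval.

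The widest gap between the lines in a role group was among the 4 interferon and innate immune genes. Of these, 3 were called in K562 and 1 in HepG2 (all genes 36.7% and 32.0%). Such numbers are too small to be read as a trait of the role. USP25 had 174 bp in K562 (chr21:17102096-17102269) and, at lower confidence in HepG2, 172 bp that began at the same base. USP38, which acts on TBK1, had 170 and 70 bp in K562, and a single lower-confidence interval of 352 bp in HepG2 spanned most of that region. USP31 had 142 bp in K562 and 234 bp in HepG2, both at high confidence. USP18, an interferon-induced protease that removes ISG15 rather than ubiquitin, had no interval. At USP25 and USP38 a HepG2 interval was thus present, in fewer replicates than the high-confidence list required.

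Among 6 less characterised or tissue-restricted members, USP53 and USP54 had high-confidence intervals in both lines (all genes 25.3%). USP53, mutated in an inherited cholestasis, had 289 bp in K562 and 250 bp in HepG2. USP54 had 197 and 83 bp at a distant start site, centred at -34641 and -34673 bp from its canonical TSS, and around the canonical TSS itself it had no high-confidence interval. USP40 and USP43 had lower-confidence intervals of 251 and 155 bp in HepG2 alone. The imprinted gene USP29 and USP50 had none.

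High-confidence intervals sat close to start sites and more often before than behind them. In K562 there were 39 such intervals at USP genes, with a median centre at -64 bp from the nearest TSS (95% interval of the median -83 to -15 bp). In HepG2 there were 38, with a median of -57 bp (-96 to -10). The medians over all genes were -52 and -61 bp, within those intervals. USP distances were taken to TSSs of the USP gene itself, even where a neighbour's TSS may be nearer. The comparisons of position with all genes are therefore approximate. Centres lay upstream in 28 of 39 and 28 of 38 intervals (71.8% and 73.7%, all genes 79.0% and 78.0%). They lay within 250 bp of a TSS in 36 of 39 and 35 of 38 (92.3% and 92.1%, all genes 88.1% and 87.0%).

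By annotation at their centres, 18 K562 intervals lay upstream of the gene, 11 in an untranslated part of an exon, 1 in a noncoding exon and 9 in an intron. In HepG2 the numbers were 18, 9, 0 and 11. Coding exons held none in either line. An annotated TSS was spanned by 27 of 39 and 22 of 38 intervals, also by some in introns of transcripts that start further out. USP5 and USP45 supplied the intervals farthest from a start site, and in each line 5 intervals were more than 1 kb from the canonical TSS.

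**Figure D3:**
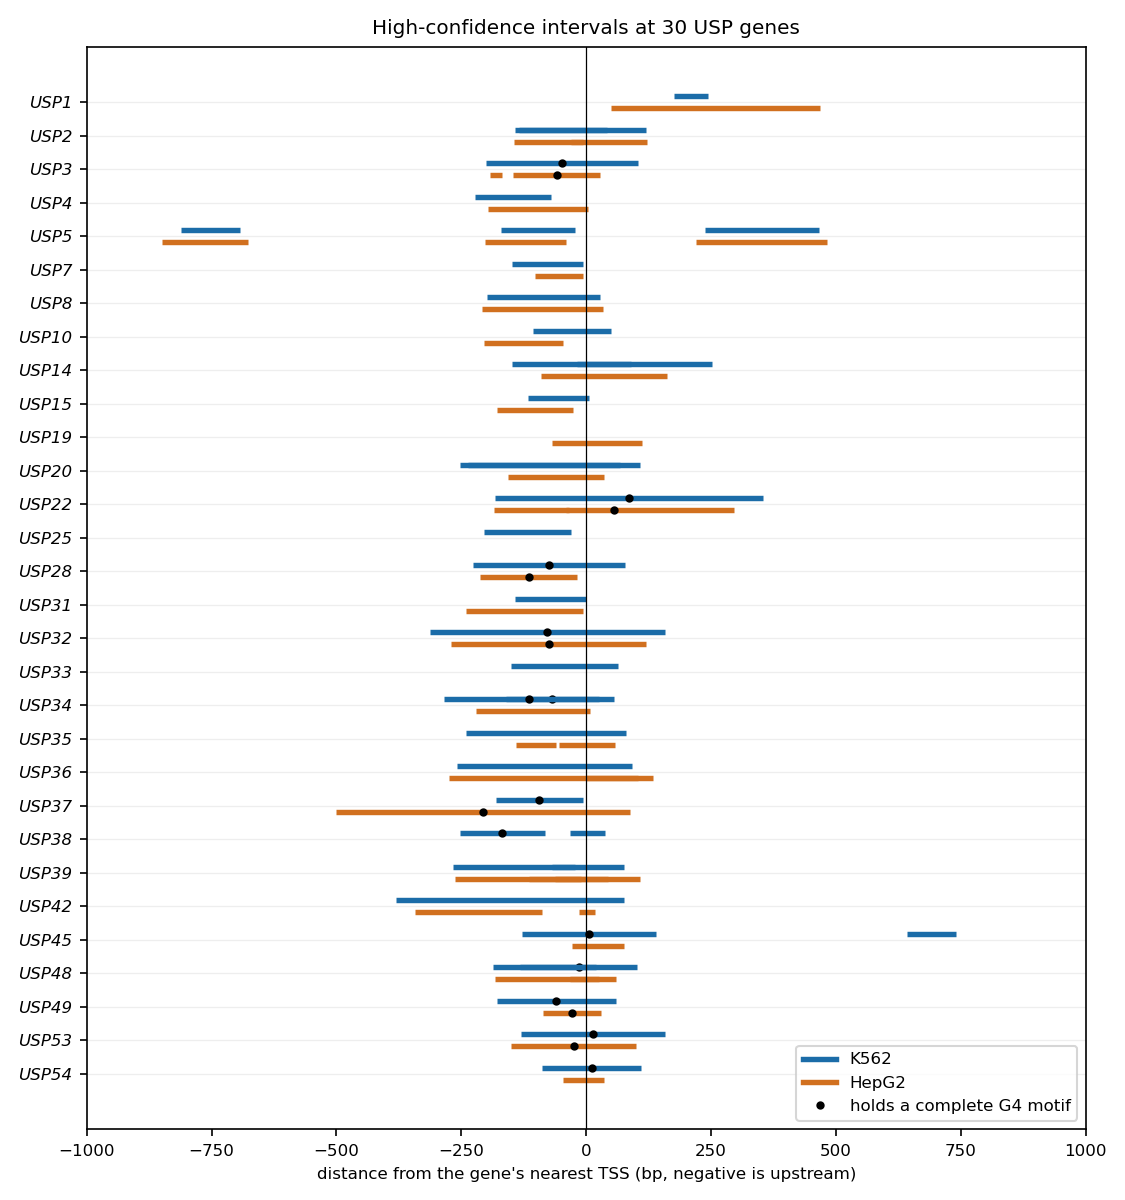
High-confidence intervals of K562 (blue) and HepG2 (orange) at 30 USP genes, drawn to scale against the distance (bp) from the nearest TSS of the gene, with intervals at different start sites of a gene drawn on the same row. A black dot at the centre marks an interval that holds a complete motif (13 in K562, 7 in HepG2), and most intervals lie within 250 bp of the TSS.

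At all 26 genes with high-confidence intervals in both lines, an interval of one line overlapped an interval of the other. The centres of the closest pair were a median of 23.8 bp apart, 21 of 26 were within 50 bp, and the largest distance was 112.5 bp, at USP37. Of single intervals, 30 of 39 in K562 overlapped a HepG2 high-confidence interval, 6 overlapped only a lower-confidence one and 3 overlapped neither, those 3 being the second intervals of USP2, USP14 and USP20. In HepG2 the numbers were 34, 2 and 2 of 38, with USP19 and the inner interval of USP39 in the second class and the inner intervals of USP2 and USP36 in the third. Overlap counts and centre distances over all genes are not given here, so these values are not read as particular to USP genes.

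K562 intervals covered more of the promoter at most of these genes. The median covered length was 313 bp in K562 and 238 bp in HepG2, and K562 covered more at 16 genes and HepG2 at 10. The same comparison over all 4861 genes with intervals in both lines gave K562 the greater length at 62.1%, so the USP share of 16 in 26 was near the background. The shared stretch was a median of 67.2% of the K562 length and 98.9% of the HepG2 length. Genes with far more in HepG2 were USP1 and USP37, and those with far more in K562 were USP20 and USP45. Of single intervals, 17 of 38 in HepG2 lay wholly inside K562 intervals and 7 of 39 in K562 wholly inside HepG2 intervals. Counts of such nested intervals over all genes are not given here. High-confidence intervals near TSSs of all genes were also narrower in HepG2, with median widths of 182 bp there and 204 bp in K562.

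**Figure D4:**
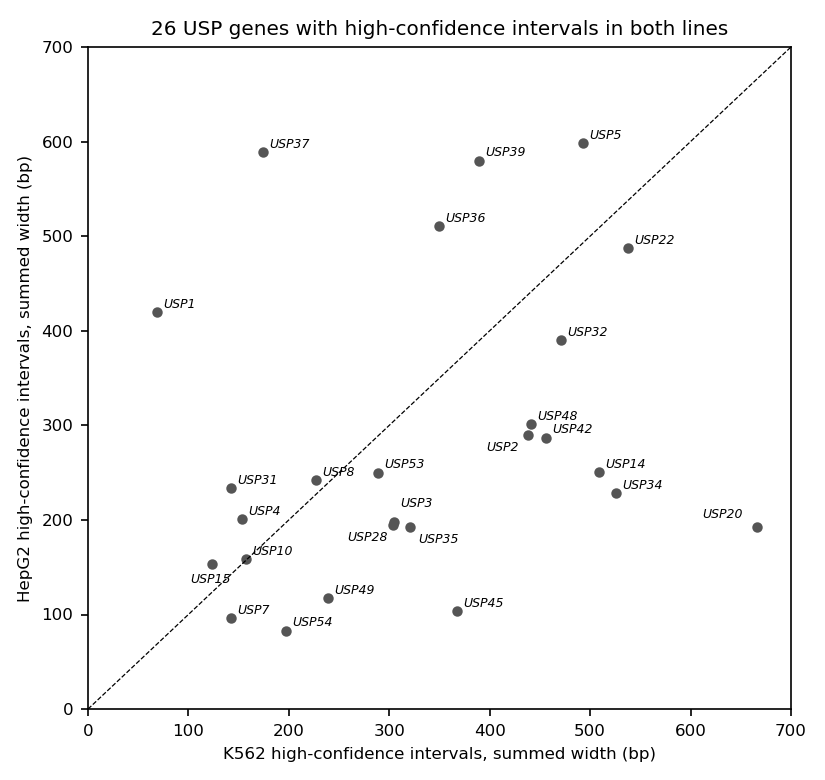
Summed width (bp) of high-confidence intervals at the 26 USP genes called in both lines, K562 on the horizontal and HepG2 on the vertical axis, with the dashed line marking equal widths. Of the 26 genes, 16 lie below the line (more in K562) and 10 above it, and USP1, USP37, USP20 and USP45 lie farthest from it in relative terms.

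Separate high-confidence intervals at one gene were in part pieces of one longer stretch. The HepG2 pairs at USP3, USP22, USP35 and USP42 and the K562 pairs at USP14 and USP38 each lay within 1 lower-confidence interval of the same line. At USP2, USP5, USP36, USP39 and USP48 in HepG2, and at USP2, USP5, USP20, USP34, USP39, USP45 and USP48 in K562, each lay in a lower-confidence interval of its own. Counts of intervals per gene thus depended on how many replicates were required along a stretch.

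A complete motif was present in 13 of 39 K562 intervals (33.3%, Wilson 20.6 to 49.0, all genes 35.0%) and in 7 of 38 HepG2 intervals (18.4%, 9.22 to 33.4, all genes 25.0%). Both shares were near the background, and the interval of each line contained the background value. When runs of 2 G were allowed, 36 of 39 and 33 of 38 intervals held a motif (92.3% and 86.8%, all genes 91.1% and 85.8%). When each interval was extended by 50 bp on both sides, the shares for complete motifs were 46.2% in K562 and 36.8% in HepG2. All-gene shares are not given for this extension. The median width was 215 bp in K562 and 186 bp in HepG2, and 4 HepG2 intervals but no K562 interval were under 50 bp. Median GC content was 72.1% in K562 and 71.9% in HepG2, beside 71.2% and 67.6% at all genes.

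Overlapping motifs counted once, K562 intervals held 14 motif sites in 12 genes and HepG2 intervals 8 sites in 7 genes, and every HepG2 site was also in K562. The gene's own strand carried 12 of 14 sites in K562 and 8 of 8 in HepG2. Over all genes, 55.1% of 3654 motifs in K562 intervals and 52.5% of 2031 in HepG2 intervals ran on the strand of the nearest gene. The sites are few and several are close to other genes, and the strand share was not tested.

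The 6 sites held by K562 intervals only are printed next, since they mark where the lists of the lines differ in motif content. They were chosen after their values were seen. Capitals again mark runs of 3 or more G.
USP34 (chr2:61697950-61697978, plus strand): GGGcGGGcggcggcGGGGacGGGGcGGGG
USP34 (chr2:61698437-61698453, minus strand): GGGctGGGcGGGGtGGG
USP38 (chr4:144105928-144105970, plus strand): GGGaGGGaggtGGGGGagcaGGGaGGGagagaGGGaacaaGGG
USP45 (chr6:99963399-99963435, plus strand): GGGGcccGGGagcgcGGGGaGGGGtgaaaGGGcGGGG
USP48 (chr1:22109611-22109628, minus strand): GGGtcGGGcgcGGGcGGG
USP54 (chr10:75385643-75385676, minus strand): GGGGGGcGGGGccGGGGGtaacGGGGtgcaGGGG

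The site at USP45 and the first at USP34 ran opposite to the gene. At the second USP34 site the HepG2 high-confidence interval ended inside the motif. At USP45 the HepG2 interval ended 6 bp before the motif began, at USP48 it lay 32 bp away, at USP54 56 bp and at the first USP34 site 238 bp. Of the 6 sites, 5 lay inside a lower-confidence HepG2 interval, the exception being USP54.

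Many intervals held G runs without a complete motif. As an example, chosen after its values were seen, the HepG2 interval of USP7 (chr16:9057771-9057866), with 80.2% GC, is shown on the plus strand, which is opposite to the gene.
USP7: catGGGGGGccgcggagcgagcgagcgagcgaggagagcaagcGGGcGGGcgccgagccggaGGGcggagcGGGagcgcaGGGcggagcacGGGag
It held 7 runs of 3 or more G, with too few of them within 7 bases of each other to meet the definition. With loops of up to 12 bases it did meet it, as did 51.3% of the K562 and 34.2% of the HepG2 intervals. The shares over all genes with such loops are not given here.

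Motifs were also present at promoters without any interval. Around the canonical TSS (1 kb on either side), 33 of 45 USP genes held a complete motif (73.3%, all genes 68.4%). Among the 26 genes with intervals in both lines the number was 21 (80.8%, all genes of that class 79.7%). Among the 8 genes without an interval it was 3 (37.5%, all genes of that class 53.7%). Those 3 were USP6, USP13 and USP47, and a motif of each, chosen after its values were seen, is printed because it is a G4-forming sequence by this definition at which neither line had an interval.
USP6 (chr17:5018478-5018499, plus strand): GGGGGGtGGGGcggtGGGtGGG
USP13 (chr3:179370264-179370287, minus strand): GGGGGaGGGcGGGGtgtgtgtGGG
USP47 (chr11:11862958-11862976, plus strand): GGGaGGGtGGGGagaGGGG

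The centres of these motifs lay at -838 bp from the canonical TSS at USP6 and at -552 bp at USP13 and USP47. The USP47 motif spanned the first annotated base of that gene (chr11:11862970), a start site further out than the canonical one. USP13 held 2 further motifs and USP6 1 further motif nearer the TSS, at 33 and 93 bp and at 278 bp downstream.

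Base composition at the canonical TSS overlapped between called and uncalled members. Median GC content was 57.9% for genes with intervals in both lines (range 36.5 to 71.6) and 55.8% for genes without an interval (38.8 to 59.4). The median ratio of observed to expected CpG dinucleotides, which is high in CpG islands, was 0.780 and 0.659. For all genes without an interval it was 0.371. Over all members the median ratio was 0.756, beside 0.639 for all genes, so a higher ratio was not particular to the uncalled USP genes. USP44 and USP50 were low on both measures (38.8% GC and 0.292 CpG at USP44, 43.4% and 0.403 at USP50), whereas USP13 (59.4% and 0.861) was not. USP54 was the lowest of all members (36.5% and 0.166) at its canonical TSS, with its high-confidence intervals at the distant start site described above.

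**Figure D5:**
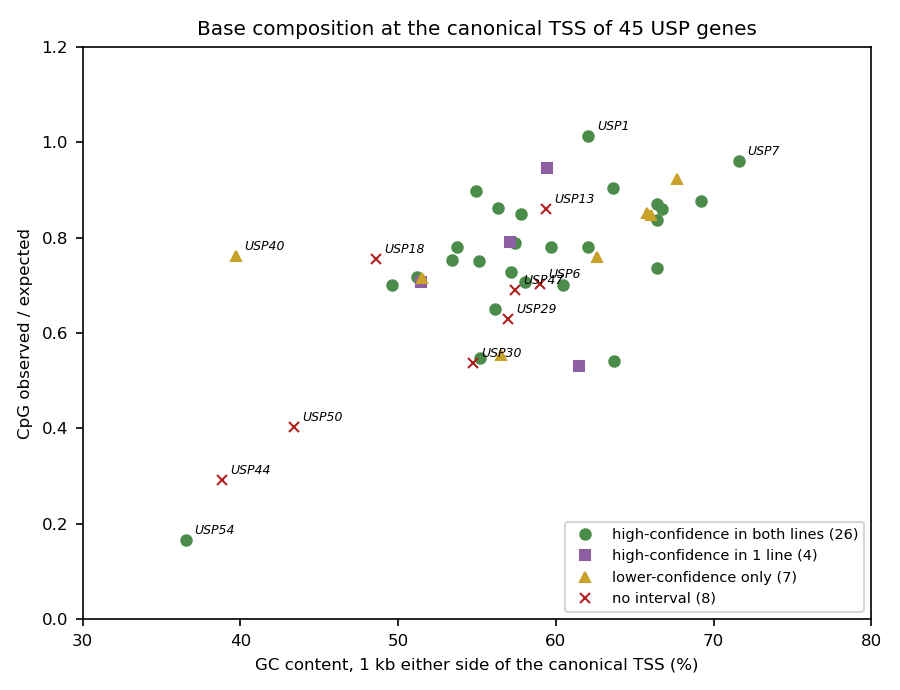
GC content (%) and observed to expected CpG ratio in the 2 kb window around the canonical TSS of each USP gene, with symbols for the class of interval found near any TSS of the gene. Genes without an interval (red crosses, 8 genes) range from 38.8% to 59.4% GC and overlap the genes with intervals in both lines (green, 26 genes).

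Genes of other deubiquitinase families, listed by family and not by shown activity, were called at rates above the genome-wide ones as well. Of 36 such genes, from the UCH, OTU, Josephin, JAMM and MINDY families with ZUP1 and CYLD, 23 (63.9%) had a high-confidence interval in K562 and 20 (55.6%) in HepG2, 17 had one in both and 6 had no interval. The shares over all genes were 36.7%, 32.0%, 25.3% and 39.6%. By family, intervals in both lines were present at 8 of 13 OTU genes, 5 of 10 JAMM genes, 2 of 5 MINDY and ZUP1 genes, 1 of 4 UCH genes and 0 of 3 Josephin genes, and at CYLD. MINDY4 was called in K562 with no HepG2 interval in either list, a class that held no USP gene and 3.15% of all genes.

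Of 10 cofactors and partners of USPs, 7 were called in K562 (all genes 36.7%), 6 in HepG2 (32.0%) and 6 in both (25.3%). WDR48, which activates USP1, USP12 and USP46, had lower-confidence intervals in both lines, and its fellow cofactor WDR20 had high-confidence ones. ATXN7L3 and ENY2, which form the SAGA deubiquitinase module with USP22, had high-confidence intervals in both lines, whereas ATXN7 was listed at lower confidence in HepG2 only.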

How the data were processed

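Per the methods of the study, the authors removed adapters (cutadapt), mapped reads to hg19 (BWA), discarded duplicates (Picard, samtools), called peaks in every replicate (MACS2) and combined replicates by the number that shared a stretch (bedtools multiinter). The deposited values are interval start and end positions in bp, in 4 lists. The sample list names 3 G4 ChIP libraries and 1 input per line, which the series' design text calls technical replicates, and does not tie them to the 8 or 9 replicates behind the lists.

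Intervals were compared with GENCODE version 44 lifted to GRCh37, using Python 3.11.15, numpy 2.4.6, scipy 1.17.1 and pysam 0.24.0. All intervals lay within the GRCh37 chromosomes. A gene was called when an interval overlapped the 1000 bp on either side of any TSS by at least 1 bp. Shares have 95% Wilson intervals, and medians have intervals from order statistics. Overlap and motif functions were tested on simulated windows (500) and sequences (3000) and matched a direct search in 100% of them. Genes on the sex chromosomes were left out. The members, role groups and gene lists were chosen with earlier results of these data known. Named were all members outside the class called in both lines, the 5 with the widest interval, those with 2 or more intervals in a line and those with a motif in both lines, and the other members were added to complete each role group. USP41 was on a role list and is not protein-coding in this annotation, so it is no member. Per-replicate peaks and reads were not analysed here. One further gene list of the ubiquitin system is not reported here.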

Additional observations from a re-analysis of the deposited data

How the results depend on the processing

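Of 62 alternative settings over 10 results, 54 stayed near the value given (counts within 1.5 times, motif shares and median positions within their 95% interval) and 8 did not. That rule looked at USP values only, and the genome-wide shares changed with the setting too. The lower-confidence lists gave 35 of 45 USP genes in each line, within 1.5 times the counts of 29 and 27. Over all genes the shares were 51.3% in K562 and 52.9% in HepG2 with these lists, beside 36.7% and 32.0% at high confidence. The settings were protein-coding or canonical TSSs only, a window of 500 bp, the upstream side only, at least 50% of the interval inside the window, intervals of at least 50 bp, no genes with a shared window, the lower-confidence lists and other motif definitions. Without genes that share a window, 0 of 35 USP genes were called at high confidence in HepG2 and not in K562, since USP19 has such a neighbour. The share over all genes of that kind was 5.90%. The share of intervals with a motif rose to 92.3% (K562) and 86.8% (HepG2) with runs of 2 G, and to 51.3% and 34.2% with loops of up to 12 bases, both of which are looser definitions. It was 36.8% in HepG2 when intervals were extended by 50 bp. For the longer loops and the extension no all-gene share is given. Against the canonical TSS alone, the median position was -111 bp in K562 and -123.5 bp in HepG2. The cause was not tested. No paired analysis was possible because each line has merged lists without values per replicate, and for the same reason no replicate could be left out and nothing could be compared at a given depth.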
